A study of Mus musculus with 6 samples.

Results

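The methionine cycle is the route by which liver makes and spends S-adenosylmethionine, the cell's main methyl donor, and it was followed here through 10 genes, Mat1a, Mat2a, Gnmt, Bhmt, Ahcy, Cbs, Cth, Pemt, Gamt and Mthfd1. All probe sets annotated to one of these symbols alone was taken, which gave 12 probe sets for 9 of the 10 genes, out of 22626 probe sets on the array. No probe set here was annotated to Mat2a alone, and that gene was not analysed. The samples were livers of male mice aged 12 weeks, 3 lacking chromogranin A (Chga, a prohormone of neuroendocrine secretory granules) and 3 wild type, each on its own Affymetrix expression array. The labels cite a single source for both strains and name no genetic background, treatment, feeding state, dissection time or array batch. Nothing says whether the mice came from separate litters, so a p-value covers only the spread among these 6 livers, which may be partly technical. Intensities are linear and in arbitrary units, and a change is the knockout minus the wild-type mean of log2(intensity + 16).

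In this cycle a methionine adenosyltransferase joins methionine to the adenosyl group of ATP. Methyltransferases then pass the methyl group on, leaving S-adenosylhomocysteine, which is split into adenosine and homocysteine. Homocysteine is either methylated again to methionine or drawn off towards cysteine, and the liver, where this traffic is heaviest, expresses a methionine adenosyltransferase and a betaine-dependent enzyme that most other tissues hardly use.

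Across these steps, 0 of the 12 probe sets passed an adjusted p of 0.05 with limma, against 0.376% of all 13576 probe sets tested. The most changed member, Bhmt, was 1.26-fold higher in knockout liver, and the lowest, Cbs, was 0.862 times its wild-type level, with adjusted p-values of 0.287 and 0.490. At an unadjusted limma p under 0.05 there were 2 of 12 probe sets, one for Bhmt (higher) and one for Cbs (lower), where 9.97% of all probe sets met that rule, 4.38% higher and 5.58% lower. That count was 4 without knockout replicate 1 and 1 without knockout replicate 2 or any of the 3 wild-type replicates. Groups did not overlap for 3 of 12, against 15.6% of all probe sets (7.44% higher and 8.12% lower). These 3 were Ahcy and a probe set of Mthfd1, both higher, and a probe set of Cbs, lower. Without knockout replicate 1 they were 6, and without wild-type replicate 2 they were 5. With all arrays kept, median centring left 1. Leaving out an array can only keep or raise the count without overlap. For both rules, the share of all probe sets was not counted with an array left out.

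The stretches of DNA just before the start sites of Bhmt, Ahcy and Cbs are shown because these members had the smallest p-values. They are the 250 bases before the start in RefSeq (GRCm38.p6), read 5′ to 3′ on the gene's own strand, which is the minus strand for all 3. Bhmt lies at chr13:93637759-93638008, Ahcy at chr2:155074498-155074747 and Cbs at chr17:31637206-31637455. Capitals mark matches on either strand to a CCAAT box (CCAAT), a GC box (GGGCGG), an E-box (CACGTG) or a nuclear receptor half-site (AGGTCA).
Bhmt: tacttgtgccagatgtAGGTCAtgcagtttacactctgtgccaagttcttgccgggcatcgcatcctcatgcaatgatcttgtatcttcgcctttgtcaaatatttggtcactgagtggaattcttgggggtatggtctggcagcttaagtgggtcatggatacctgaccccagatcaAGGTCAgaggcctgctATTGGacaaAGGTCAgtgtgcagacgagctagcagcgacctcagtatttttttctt
Ahcy: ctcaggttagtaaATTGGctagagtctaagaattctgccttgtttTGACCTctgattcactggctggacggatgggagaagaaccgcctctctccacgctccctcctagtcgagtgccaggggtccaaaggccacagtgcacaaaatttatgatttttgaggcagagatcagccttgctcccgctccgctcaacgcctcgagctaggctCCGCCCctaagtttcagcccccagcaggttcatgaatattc
Cbs: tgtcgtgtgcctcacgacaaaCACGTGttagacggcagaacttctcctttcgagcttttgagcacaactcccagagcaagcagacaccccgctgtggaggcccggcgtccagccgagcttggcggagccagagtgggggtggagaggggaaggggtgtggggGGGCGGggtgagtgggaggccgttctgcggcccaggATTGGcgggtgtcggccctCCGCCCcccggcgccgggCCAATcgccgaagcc
Bhmt holds 3 nuclear receptor half-sites, at 234, 72 and 47 bases before the start, and 1 CCAAT box. Among the 32851 RefSeq promoters of this length, 14% held at least 1 such half-site and 0.131% held 3 or more. Of the 9 member promoters searched, Pemt having more than 1, a half-site was in 4, those of Gnmt and Mthfd1 among them. Ahcy holds 1 half-site, 1 CCAAT box and 1 GC box. Cbs holds 2 CCAAT boxes, 2 GC boxes and an E-box, and no half-site. CCAAT boxes were in 7 of the 9 member promoters, against 33.8% of all promoters. GC boxes were in 5 of the 9, against 32.7%, and E-boxes in 1, against 6.02%. TATA boxes (TATAAA, in 12.4% of promoters) and cAMP response elements (TGACGTCA, in 1.55%) were searched as well and had no match in these 3. The marked matches do not overlap one another, and a match is a string of letters, not a site shown to be bound. Promoter entries were found for 8 of the 10 members, without Mat1a and Cth.

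Mat1a encodes the liver form of methionine adenosyltransferase, which makes S-adenosylmethionine. Its intensities were 74068, 89648 and 84568 in knockout liver and 71851, 78386 and 72305 in wild-type liver. The groups overlap, since knockout replicate 1 lies under wild-type replicate 2. The means were 82762 ± 7946 and 74181 ± 3649 (SD, n = 3 each), a change of 0.15 ± 0.09 (SE), which did not pass (adjusted p = 0.618 with limma).

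**Figure D1:**
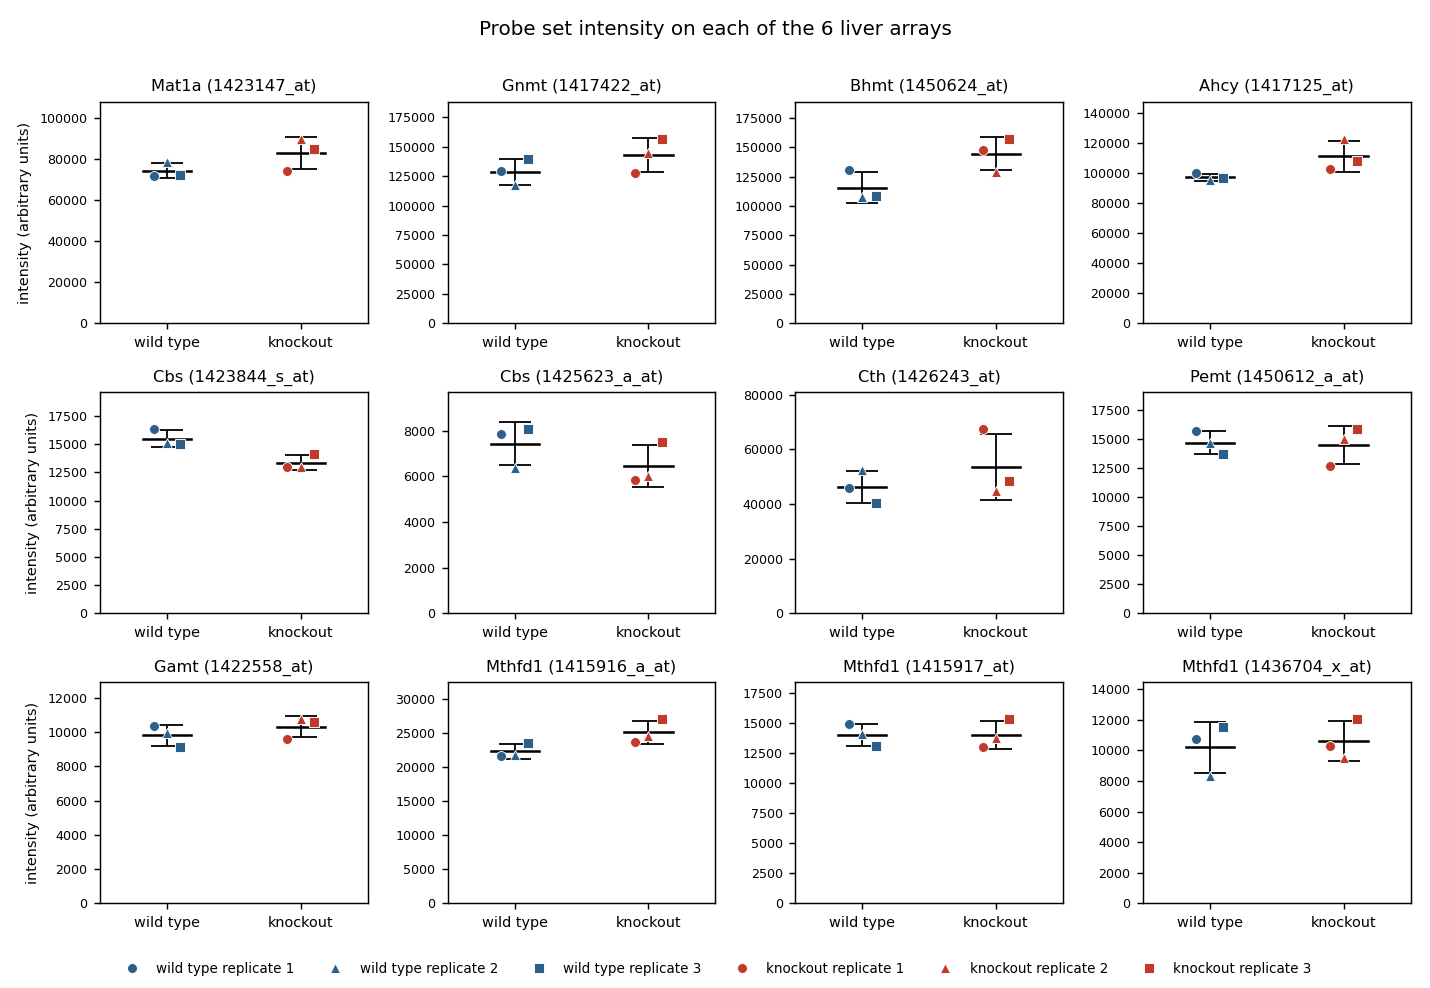
Intensity of each of the 12 probe sets (vertical axis, arbitrary units, starting at 0) on the 3 wild-type and 3 knockout arrays; symbols mark the replicate, the long bar the mean and the error bars 1 SD. Wild-type and knockout points separate without overlap for Ahcy, for Cbs 1423844_s_at and for Mthfd1 1415916_a_at, and knockout replicate 1 stands apart for Cth at 67425.

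Gnmt, the glycine methyltransferase that spends S-adenosylmethionine when it is plentiful, read 127553, 144719 and 156589 in knockout and 128923, 117394 and 139336 in wild type. The lowest knockout value lies within the wild-type range. The change of 0.15 ± 0.10 did not pass (limma adjusted p = 0.649), and after quantile normalization it was -0.0018.

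The other methyltransferases among the members also had overlapping groups. Pemt, which methylates phosphatidylethanolamine to phosphatidylcholine, read 12647, 14972 and 15865 in knockout and 15671, 14651 and 13702 in wild type. Its change was -0.022 ± 0.11, with a 95% interval from -0.27 to 0.22. Gamt, which makes creatine from guanidinoacetate, read 9599, 10754 and 10571 in knockout and 10355, 9948 and 9135 in wild type. Its change was 0.071 ± 0.10, with an interval from -0.16 to 0.30. For both genes the interval reaches well to either side of 0, so neither a small rise nor a small fall was detectable with 3 arrays a group.

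Ahcy encodes the hydrolase that splits S-adenosylhomocysteine, which S-adenosylmethionine leaves behind once its methyl group is passed on and which inhibits the enzymes that make it. It read 102699, 122729 and 108148 in knockout and 99819, 95214 and 96998 in wild type. All knockout arrays lay above all wild-type arrays, although knockout replicate 1 exceeded wild-type replicate 1 by little. The coefficient of variation was 2.39% in wild type and 9.31% in knockout. The change was 0.19 ± 0.09 (1.14-fold, limma adjusted p = 0.502).

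Bhmt encodes the enzyme that remethylates homocysteine with betaine, a derivative of choline. It read 147808, 128831 and 157048 in knockout and 130479, 107236 and 108097 in wild type. The groups overlap only in that knockout replicate 2 fell below wild-type replicate 1. Means were 144562 ± 14386 and 115271 ± 13178 (SD, n = 3 each). The change of 0.33 ± 0.10 had a 95% interval from 0.099 to 0.56, that is 1.07-fold to 1.47-fold, before any adjustment over the probe sets tested. Adjusted over all of them it did not pass (limma, adjusted p = 0.287), and over 16 alternatives its adjusted p ran from 0.226 to 0.631 while the change stayed between 0.21 and 0.42.

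Mthfd1 encodes the cytosolic folate enzyme that interconverts the folate forms feeding the remethylation of homocysteine by methionine synthase. Its 3 probe sets did not give the same picture. Probe set 1415916_a_at read 23773, 24542 and 27072 in knockout and 21711, 21754 and 23621 in wild type. These groups do not overlap, by a margin of less than 1 SD of either group, and the change was 0.17 ± 0.09 (limma adjusted p = 0.591). Probe set 1415917_at had nearly equal means, 14023 ± 1183 and 14034 ± 915 (SD, n = 3 each), and a change of -0.0025 ± 0.10 that turned to 0.012 with median centring. Probe set 1436704_x_at, whose suffix marks probes that can also bind other transcripts, stood at 0.066 ± 0.14. The brightest probe sets of Adk, Odc1 and Adi1, described further on, carry the same suffix.

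Cbs encodes cystathionine beta-synthase, which commits homocysteine to the cysteine branch. Probe set 1423844_s_at read 12973, 12965 and 14148 in knockout and 16361, 15143 and 15021 in wild type. Every knockout array lay below every wild-type array. Means were 13362 ± 681 and 15508 ± 741 (SD, n = 3 each), and the change was -0.21 ± 0.09 with a 95% interval from -0.42 to -0.0068 (limma adjusted p = 0.490). The second probe set, 1425623_a_at, was close in size at -0.20 ± 0.14, but its groups overlap. It read 5833, 6027 and 7520 in knockout and 7863, 6363 and 8080 in wild type.

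Cth, the lyase that cleaves cystathionine to cysteine, is the next step of the same branch and stood on the other side of 0, at 0.20 ± 0.15 (limma adjusted p = 0.705). It read 67425, 44700 and 48409 in knockout and 45975, 52270 and 40335 in wild type. One array, knockout replicate 1, lay above the other 5, which overlap between groups, and without it the change was 0.018. The difference between the changes of Cbs and Cth was not tested.

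**Figure D2:**
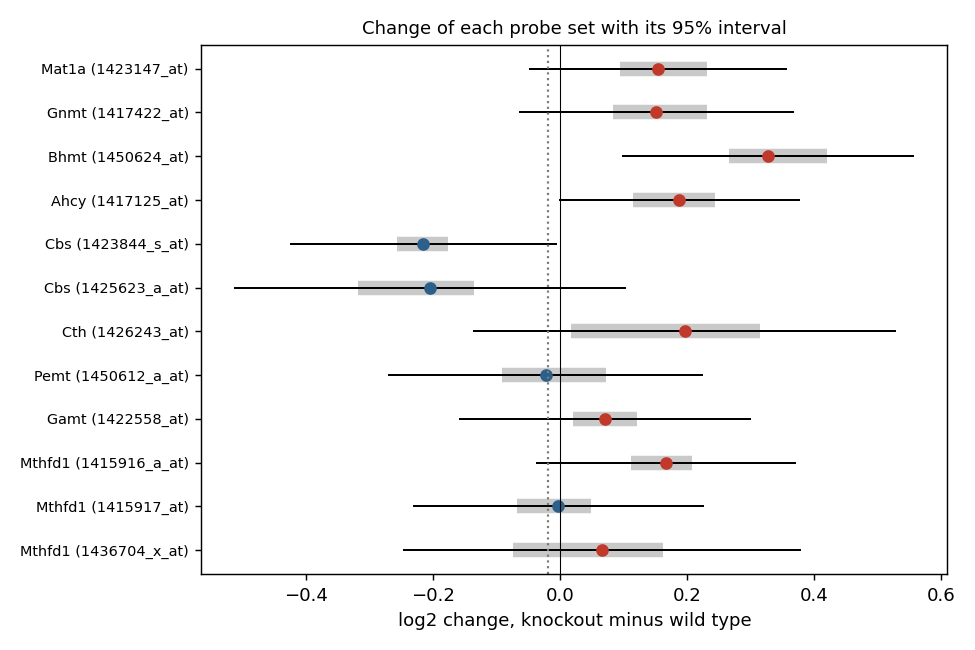
Log2 change (horizontal axis, knockout minus wild type) of each of the 12 probe sets; points are the fitted change (red above 0, blue below), lines the 95% interval of the fit, grey bars the range when each array is left out in turn, and the dotted line the median of all probe sets tested, -0.018. Only the intervals of Bhmt and of Cbs 1423844_s_at lie wholly on one side of 0, and the grey bar of Cth reaches from 0.018 to 0.31.

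Taken over the 9 genes, each by its brightest probe set, 7 changes were above 0 and 2 below, with a median of 0.15, where all 8047 genes tested had a median of -0.015 and 47.3% above 0. By probe set, 8 of 12 were above 0, a count of 7 after quantile normalization and 9 after median centring. Within each array, the median of the 9 genes relative to the wild-type mean was -0.0010, 0.14 and 0.15 in knockout and 0.036, -0.032 and -0.045 in wild type. Knockout replicate 1 thus lay inside the wild-type range, and it was the lowest knockout array for 8 of the 12 probe sets, while knockout replicate 3 was the highest for 8. Without knockout replicate 1, still 0 of the 12 probe sets passed the adjusted threshold with limma.

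Brightness moved with the change. Mat1a, Gnmt, Bhmt and Ahcy were among the brightest 1% of probe sets, and the 226 probe sets of that class had a median change of 0.12, with 87.2% above 0. From the brightest 1% to 5%, where Cth and Mthfd1 1415916_a_at lie, the median was 0.041. From 5% to 11%, where the other 6 probe sets lie, both of Cbs included, it was 0.00098. These brightness classes were chosen after the values were seen. After quantile normalization, which gives every array the same distribution of values, the median of the brightest 1% was 0.0085. Mat1a was then at 0.051, Gnmt at -0.0018 and Ahcy at 0.068, whereas Bhmt was at 0.21 and the Cbs probe sets at -0.22 and -0.20. The median of the 12 probe sets was 0.058 instead of 0.11.

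**Figure D3:**
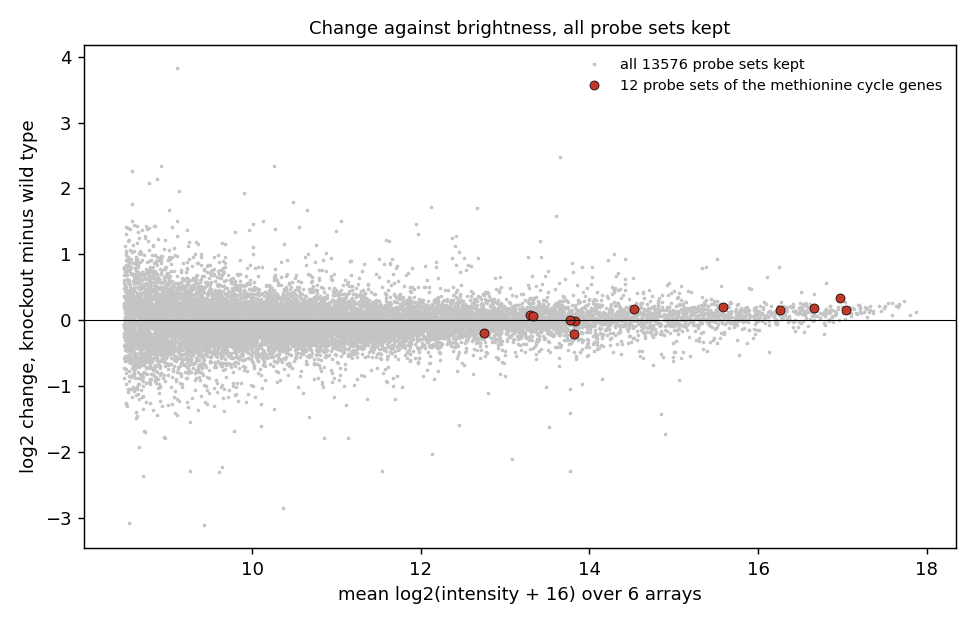
Log2 change (vertical axis, knockout minus wild type) against mean log2(intensity + 16) over 6 arrays (horizontal axis) for all 13576 probe sets tested (grey) and the 12 probe sets of the methionine cycle genes (red). At the bright end the grey points sit above 0 (median 0.12 in the brightest 1%), and 4 of the red points lie in that range.

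All 12 probe sets were far above background. The dimmest reading among them was 5833, and the 95th percentile of 27 control probe sets for bacterial transcripts ran from 151 to 322 over the arrays. The members also varied less than most probe sets, with a median coefficient of variation of 9.78% in knockout and 6.62% in wild type, against 14.8% and 12.9% over all probe sets tested. Their standard errors had a median of 0.10, against 0.19 over all probe sets tested. All 12 were within the brightest 10.7% of probe sets, and their spread was not compared with probe sets of like brightness. The 12 intervals together run from -0.51 to 0.56, so for every probe set a difference larger than 1.47-fold in either direction lies outside its 95% interval.

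Hepatocyte markers were bright in both groups. Of 12 hepatocyte markers, 10 were measured and 0 passed, with a median change of 0.098. Albumin (Alb) was at 0.19 ± 0.09, and went down to 0.0056 over the alternatives that kept all arrays. All of the 10 but Tat and Hnf4a were among the brightest 1% of probe sets. That class had a median change of 0.12, with 87.2% above 0. The summed intensity of the hepatocyte markers ran from 1290340 to 1476180 in knockout and from 1236780 to 1359300 in wild type. Their median by array was 0.040, 0.20 and 0.083 in knockout and 0.00079, -0.060 and 0.067 in wild type; 9 of the 10 were above 0 and 1 set of groups did not overlap, that of Cps1. Macrophage markers (9 of 10 measured, median -0.21) summed to 18975 to 30553 in knockout and 23941 to 31412 in wild type. Of the 9, 8 were below 0, and groups did not overlap for 1, Cd68, a lysosomal protein of macrophages. Cd68 read 403, 49.3 and 507 in knockout and 708, 652 and 530 in wild type, a change of -1.40 ± 0.67 (limma adjusted p = 0.537), with knockout replicate 2 not above background. Stellate cell and matrix markers (6 of 8, median -0.35) summed to 19634 to 25759 in knockout and 23301 to 32049 in wild type, and all 6 were below 0. Endothelial markers (6 of 8) had a median of -0.028. All 4 cholangiocyte markers (Krt19, Krt7, Epcam and Sox9) were too dim to be tested. Of the leukocyte and erythroid markers, 2 of 5 and 1 of 4 were measured, all below 0, with medians of -0.12 and -0.026. Of 5 pancreas markers, 2 were measured and both were below 0. One was the elastase Cela1, which read 7968, 6765 and 4663 in knockout and 9489, 9132 and 9650 in wild type, lower in every knockout array (-0.58 ± 0.17, limma adjusted p = 0.245). The other, Cela2a, was at -0.24 ± 0.35. With limma, 0 of the 36 markers measured over 8 lists passed. All knockout arrays were lower for 4 of the 36 and higher for Cps1 alone, against 7.84% and 7.77% of all genes. An unadjusted limma p under 0.05 was met by 3 markers, all lower, where 10.3% of all genes met that rule (5.69% lower). These were Cela1 and, of the stellate and matrix markers, Col3a1 (-0.61 ± 0.18) and Reln (-0.48 ± 0.17), each lower in every knockout array. Their part in the members' values was not tested. In a whole-liver extract, fewer cells of a type and less RNA per cell cannot be told apart. The 5′ to 3′ signal ratio of the Gapdh control probe sets, a sign of RNA quality, was 1.23 to 1.29 in knockout and 1.25 to 1.29 in wild type. That of the beta-actin control probe sets was lower, at 0.351 to 0.366 in knockout and 0.356 to 0.366 in wild type. Chga itself read 44.5 to 231 in knockout and 42.5 to 185 in wild type on its only probe set, too dim to check the genotype labels.

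The neighbouring pathways were described through 9 lists holding 109 genes, of which 80 were measured, each by its brightest probe set. With limma, 0 of the 80 passed over all probe sets tested (0.423% of all genes did), and 10 had an unadjusted p under 0.05 (12.5%), where 10.3% of all genes met that rule. Of these 10, 6 were higher (7.5%, against 4.57% of all genes) and 4 lower (5.0%, against 5.69%). Groups did not overlap for 16 genes (20.0%, against 15.6% of all genes). All knockout arrays were higher for 11 genes (13.8%, against 7.77%) and lower for 5 (6.25%, against 7.84%). The median change was 0.011, with 42 above 0 and 38 below. After quantile normalization the median was 0.00018. The share without overlap was thus above that of all genes on the higher side and below it on the lower side. This difference was not tested, and the shares were not compared with genes of like brightness.

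Among the other methionine cycle genes (6 of 8 measured), Mtrr, which reactivates methionine synthase, was at -0.39 ± 0.21 with all knockout arrays lower. Mat2b, the regulatory subunit of methionine adenosyltransferase, was at -0.29 ± 0.17. Ahcyl1, a protein related to Ahcy, was at 0.16 ± 0.10, while its other probe sets stood at 0.18 and -0.43 ± 0.25. Adk, the kinase that removes adenosine, was at 0.077 ± 0.083, or -0.031 after quantile normalization, and its other probe sets lay at -0.011, 0.11 and 0.39. Adjusted p-values in this list were 0.581 or more.

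Beyond Cth lie the uses of cysteine. Csad, the decarboxylase of taurine synthesis, read 5818, 11271 and 8052 in knockout and 4345, 4449 and 4787 in wild type. All knockout arrays were higher, at 1.78-fold, with a change of 0.84 ± 0.20 that did not pass (limma adjusted p = 0.125). The knockout arrays spread widely (SD 2741) and the wild-type arrays little (SD 231). Without knockout replicate 1 Csad passed, at 1.07 (limma adjusted p = 0.0243). With each array left out in turn the change ran from 0.60 to 1.07. Over 16 alternatives its limma adjusted p ran from 0.0243 to 0.402. Gclc, the catalytic subunit of the first enzyme of glutathione synthesis, was at -0.32 ± 0.13, its second probe set at -0.33 ± 0.11, both with overlapping groups. Sqor, which oxidises hydrogen sulfide, was at 0.25 ± 0.10 without overlap, and Ggct, a cyclotransferase of glutathione breakdown, at 0.38 ± 0.31. The 12 genes of this list had a median of -0.00038, 6 above 0 and 6 below.

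Betaine, the substrate of Bhmt, comes from choline by way of Chdh, the choline dehydrogenase, which was at -0.24 ± 0.12 with overlapping groups. Dmgdh, which takes up the dimethylglycine that Bhmt releases, was at 0.20 ± 0.09 and did not overlap between groups. Sardh, which oxidises the sarcosine that Gnmt makes, was at -0.047 ± 0.15, and its other probe set at 0.18 ± 0.15. Pipox, a peroxisomal sarcosine and pipecolic acid oxidase, was at -0.23 ± 0.09, lower in every knockout array. All 5 genes of this list were measured and their adjusted p-values were 0.433 or more.

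Of the folate genes (10 of 19 measured), Shmt1, the cytosolic serine hydroxymethyltransferase, was at 0.29 ± 0.14, and its 3 other probe sets at 0.21, 0.22 and 0.27. The folate carrier Slc19a1 was at 0.26 ± 0.17 and, in its other probe set, at -0.23 ± 0.41. The formyltetrahydrofolate dehydrogenase Aldh1l1 was at 0.16 ± 0.11, with its other probe set at -0.048 ± 0.21, and Fpgs, which adds glutamates to folate, at 0.061 ± 0.12. Adjusted p-values were 0.539 or more.

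The synthesis of phosphatidylcholine from choline runs beside the Pemt route. Chpt1, which completes it, was at 0.34 ± 0.11 (limma adjusted p = 0.321), with no overlap between groups here or in a second of its 4 probe sets, at 0.43. Ptdss1, a phosphatidylserine synthase, was at 0.21 ± 0.12, the choline transporter Slc44a1 at 0.15 ± 0.12, and Pcyt1a, which controls the pace of this route, at 0.11 ± 0.12, with its 3 other probe sets from -0.10 to 0.20. Of the creatine genes, Gatm, the step before Gamt, was dim and above background in 2 of 3 knockout arrays, at -0.47 ± 0.39. The transporter Slc6a8 was at -0.068 ± 0.26, its other probe set at 0.39 ± 0.41, and the kinase Ckb at 0.052 ± 0.31.

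The widest changes were in a list of other methyltransferases, mostly of small molecules (9 of 11 measured), which spend S-adenosylmethionine as Gnmt does. The list also holds Pcmt1 and Icmt, which act on proteins. Nnmt, which methylates nicotinamide, read 4740, 4088 and 5543 in knockout and 2986, 1364 and 2173 in wild type. Every knockout array was higher, and the 2.29-fold difference, a change of 1.19 ± 0.24, did not pass (limma adjusted p = 0.0729). Leaving out wild-type replicate 1 brought it past, at 1.46 (adjusted p = 0.0447), and over 16 alternatives its adjusted p ran from 0.0447 to 0.343. As3mt, which methylates arsenic, read 4656, 3644 and 3710 in knockout and 1433, 2497 and 2530 in wild type. It was 1.90-fold higher without overlap (0.93 ± 0.22, limma adjusted p = 0.116). The remaining 7 genes lay between -0.12 and 0.046. Pcmt1, which repairs damaged aspartyl residues, was at -0.12 ± 0.12, with its 3 other probe sets from -0.11 to 0.022, and Tpmt, which methylates thiopurine drugs, at -0.10 ± 0.12. The list's median was -0.059.

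**Figure D4:**
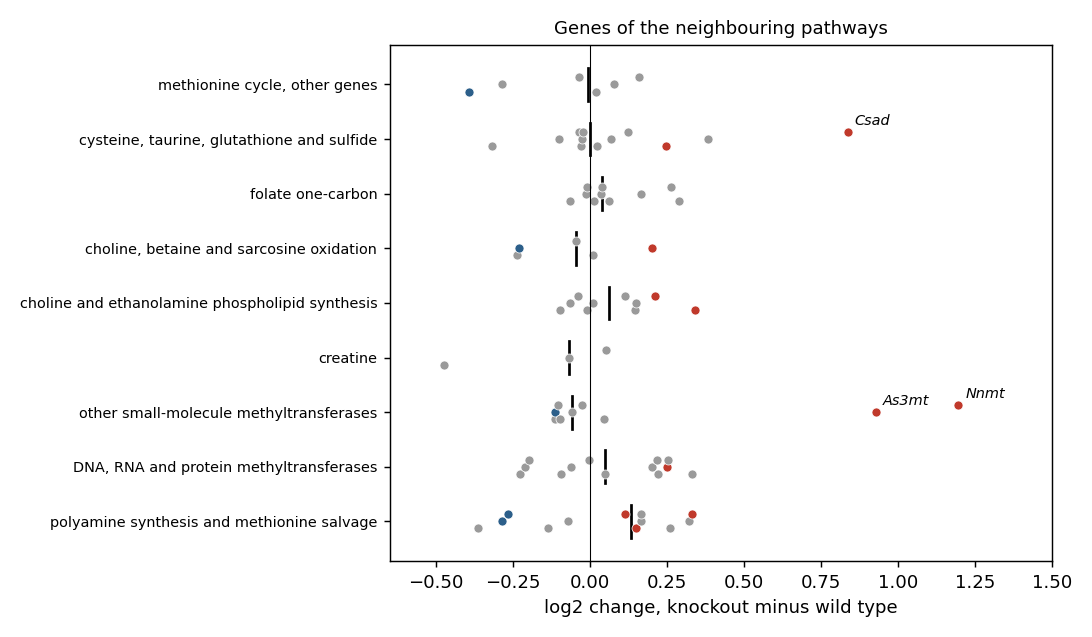
Log2 change (horizontal axis, knockout minus wild type) of the 80 measured genes of 9 neighbouring lists (rows); 1 point is a gene by its brightest probe set, red where all knockout arrays were higher, blue where all were lower, grey where groups overlap, and the black tick is the list's median. Csad, As3mt and Nnmt lie apart at 0.84, 0.93 and 1.19, and every other gene lies between -0.47 and 0.38.

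Methyltransferases of DNA, RNA and protein (13 of 21 measured) had a median of 0.047. Carm1, an arginine methyltransferase, was at 0.33 ± 0.18, and the histone lysine methyltransferases Kmt5a, Ehmt2 and Ezh1 were at 0.25 ± 0.16, -0.21 ± 0.18 and -0.23 ± 0.19. A second Kmt5a probe set went the other way, at -0.24 ± 0.21. In the polyamine and methionine salvage list (12 of 15 measured, median 0.13), which draws on S-adenosylmethionine for its aminopropyl groups, Odc1, the ornithine decarboxylase, was at 0.33 ± 0.10 (limma adjusted p = 0.271). Its knockout arrays were all higher, as they were in a second probe set at 0.42. Azin1, which shields Odc1 from its inhibitor antizyme, was at -0.27 ± 0.12, and Sat1, a polyamine acetyltransferase, at -0.29 ± 0.14, both lower in every knockout array. Adi1, an enzyme of methionine salvage, was at -0.36 ± 0.13, while its other probe sets stood at 0.32 and -0.12.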

How the data were processed

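Liver RNA of 3 Chga knockout and 3 wild-type mice was hybridised to 1 array each, after guanidinium thiocyanate extraction, DNase treatment and biotin labelling, per the labels' protocols. The deposited values are linear intensities per probe set, made with GCOS 1.2, the Affymetrix operating software, per the submitters' processing notes. Means after trimming each end alike ran from 2501.32 to 2501.42 over the deposited arrays, so they had been scaled to a common level; no build, detection call or saturation flag was given in the sources used here.

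After 64 control probe sets were left out, 22626 remained, of which 20380 had 1 gene, 691 several and 1555 none; symbols were updated through RefSeq (GRCm38.p6). The upper 60% by mean, 13576, were kept. The test was limma 3.58.1 (lmFit and eBayes with trend, R 4.3.3) on log2(intensity + 16), all 6 arrays in 1 fit without covariate, with Benjamini-Hochberg over kept probe sets at 0.05. A single value of 3 against 3 arrays cannot fall below an exact permutation p of 0.1, so none is given. All probe sets of the members are named, and of each list every gene past the threshold or else the up to 4 genes of smallest p. The members, lists, filter, pseudocount and background controls were chosen with earlier results of these data known. Alternatives were 3 other pseudocounts, quantile normalization, median centring, no filter or the upper 40%, no trend, weighted arrays, a block for the replicate number, averaging a gene's probe sets, and each array left out. The fit was tested on simulated data with 3 against 3 arrays. It called 49.2% of 2-fold and 84.4% of 4-fold changes, and 3.68% of its calls were false. The number of arrays limits the precision.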

Additional observations from a re-analysis of the deposited data

How the results depend on the processing

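No member passed the adjusted threshold with limma under the 16 alternatives run by probe set, or by gene with probe sets averaged. The count of all probe sets passing, 51, became 82 with a pseudocount 16 times as large or with array weights, 7 without the intensity trend, and 21 to 48 with an array left out. Member probe sets at an unadjusted limma p under 0.05, 2 in all, became 1 after quantile normalization or median centring, 0 without the trend, and 1 to 4 with an array left out. Those without overlap, 3 in all, became 1 after median centring and 3 to 6 with an array left out. Leaving out an array can only keep or raise this last count. For the unadjusted rule and the rule without overlap, the share of all probe sets was not counted under the alternatives. The member counts there thus have nothing to be set against. Pathway genes past the threshold were 0 to 1 with an array left out, Csad or Nnmt.

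The replicate number as a block gave 27 calls and 1 member probe set at an unadjusted p under 0.05, and it changed no member's call. Same-numbered arrays correlated at -0.059, -0.060 and -0.065 in their deviations from the group means, so the numbers were not treated as pairs.

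Direction turned after quantile normalization for Gnmt (-0.0018) and Adk (-0.031) and after median centring for Mthfd1 1415917_at (0.012). With an array left out, this probe set ran from -0.068 to 0.049, Mthfd1 1436704_x_at from -0.073 to 0.16, Pemt from -0.090 to 0.073, Sardh from -0.18 to 0.076, Slc6a8 from -0.26 to 0.061, Ckb from -0.089 to 0.17 and Fpgs from -0.015 to 0.13. The cause was not tested.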
